A study of Jatropha curcas with 10 samples.

Results

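In Jatropha curcas, a shrub grown for its seed oil, RNA from inflorescence meristems was sequenced in 10 libraries after treatment with GA3 (gibberellic acid), 2 at each of 0, 6, 12, 24 and 48 h. The step described here is that from 12 h to 24 h, which compares the 4 libraries T12_1, T12_2, T24_1 and T24_2 within their library numbers, 1 with 1 and 2 with 2. Of the 28447 gene IDs in the tables, 17290 had a mean of at least 1 RPKM (reads per kilobase, scaled to the depth of the library) over these 4 libraries. All plants were 3 years old and came from Nujiang in Yunnan. Every group, the 0 h group included, is labelled by its time after GA3, and the labels name no untreated plants, dose or mode of treatment. The treatment, the hours passed since and the time of day therefore cannot be told apart. Whether the libraries of each time stem from different plants is not labelled, and p-values here reflect how far these libraries differ, which can be technical. The tables give IDs only, and 0 of them matched the 28617 genes of the RefSeq table, so genes are given by ID, and the labelled tissue could not be checked against markers of a meristem.

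Gibberellins are growth hormones that plants perceive through the GID1 receptors. A receptor with bound hormone promotes the breakdown of DELLA proteins, which otherwise hold back growth and repress or assist transcription factors. The hormone is known for its effects on stem elongation, flowering time and flower development. Many plant transcripts also follow the daily cycle.

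The 4 libraries held 18113430 to 24448219 recovered reads, with reads on 20235 to 20487 genes. A gene of 1 kb with 3 reads would stand at 0.123 to 0.166 RPKM here, a limit that covers counting error only. Over the genes tested, the difference between library 1 and library 2 had a standard deviation of 0.76 (log2) both at 12 h and at 24 h, against 0.50 at 0 h. These differences ran together over genes (Pearson r = 0.68 between 12 h and 24 h). The libraries of 1 time were not copies of each other: 0 of the genes tested had the same value above 0 in both, and their read counts differed by a chi-square per degree of freedom of 154.2 at 12 h and 163.9 at 24 h.

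Between 12 h and 24 h, 148 genes were called as rising and 53 as falling among the 17290 tested (limma on log2(RPKM + 1) over all 10 libraries, Benjamini-Hochberg adjusted p under 0.05), which is 0.856% and 0.307% of the genes. The rises were the larger changes: their median was 2.71 (log2), with 61 genes at 8-fold or more, whereas the falls had a median of -2.27, with 9 genes at 8-fold or more. All 201 called genes (1.16%) changed at least 2-fold and moved the same way in both library numbers. The calls rest on these same libraries, so such agreement is part of what the test selects. Of all genes tested, 19.97% were higher and 55.3% lower at 24 h in both numbers. The 8 libraries of 6, 12, 24 and 48 h are called the treated libraries here, though the labels do not say that those of 0 h were untreated. With the library number as a replicate block among the 8 treated libraries, 503 genes rose and 744 fell (limma, 2.91% and 4.3% of the genes), and these included all 148 and 53. With each library centred on its median, 167 rose and 31 fell. Which direction held more genes therefore turned with the settings. The counts of the fit over all 10 libraries fell when any single library was left out. Libraries of 0 h, 6 h and 48 h enter this comparison only through the estimate of spread. For these times, the counts hardly depended on which library of the pair was dropped. Leaving out 24 h library 1 left 39 rises and 6 falls, and leaving out 24 h library 2 left 132 and 18. Dropping T12_1 left 54 and 12, and dropping T12_2 left 43 and 10. Without T0_1, and likewise without T0_2, the fit called 58 and 18. With T6_1 dropped it called 82 and 31, with T6_2 dropped 83 and 31, and with T48_1 or T48_2 dropped 91 and 35.

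The largest rise was that of JCGZ_02232 (coding length 585 bases). It stood at 3.98 and 5.28 RPKM in the 12 h libraries, from 48 and 59 reads, and at 4782 and 857.7 RPKM in the 24 h libraries, from 50684 and 12270 reads. Both 24 h libraries lay far above both 12 h libraries, and the 24 h libraries differed more from each other than in any other gene named here. The change was 9.91 (log2) within number 1 and 7.10 within number 2, and limma put the change at 8.50 ± 0.73 (log2, SE, adjusted p = 0.00247). By mean RPKM the transcript moved from rank 14442 of all IDs at 12 h to rank 28 at 24 h. The 0 h libraries had 3457 and 2423 RPKM, the 6 h libraries 101.2 and 223.9, and the 48 h libraries 1793 and 1419. The 12 h libraries were thus the lowest of the course, and the 24 h pair enclosed the levels of 0 h and 48 h.

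The next largest rise was that of JCGZ_02380 (366 bases). It stood at 4.90 and 2.86 RPKM at 12 h, from 37 and 20 reads, and at 965.7 and 291.6 RPKM at 24 h. Limma gave a change of 6.80 ± 0.52 (log2, SE, adjusted p = 0.00232), with 7.36 within number 1 and 6.24 within number 2. The 0 h libraries had 501.7 and 581.3 RPKM, the 6 h libraries 80.9 and 97.5, and the 48 h libraries 489.5 and 311.8. In this gene too, both 12 h libraries were the lowest of the 10, those of 6 h came next, and the 24 h pair enclosed the levels of 0 h and 48 h. When the model held the 4 libraries of this step and no others, without a block, the limma adjusted p was 0.132 for JCGZ_02232 and 0.116 for JCGZ_02380. With a block in the same 4 libraries it was 0.0631 for JCGZ_02232. The fit without the block called 0 genes (1169 with an unadjusted p under 0.05, 91 and 35 genes higher and lower by limma-voom over all libraries).

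The largest fall was that of JCGZ_21465 (348 bases). It stood at 3127 and 3515 RPKM at 12 h and at 90.1 and 100.1 RPKM at 24 h, and the libraries of each time lay close together. The fall was alike in both numbers, -5.10 and -5.12 (log2), and the fitted change was -5.11 ± 0.58 (SE; limma adjusted p = 0.00839). By mean RPKM it was the transcript of rank 15 at 12 h and of rank 2285 at 24 h. The 0 h libraries, at 901.7 and 223.4 RPKM, and the 48 h libraries, at 217.4 and 192.4, all lay above those of 24 h. Its change from 0 h to 24 h was -2.23 (limma adjusted p = 0.955), so it did not pass the test against 0 h. The limma adjusted p of the fall was 0.0505 without 12 h library 2, 0.0597 without 24 h library 1, and 0.0535 in the 4 libraries alone.

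JCGZ_08534 (510 bases) fell next most. Its 12 h libraries, at 357.6 and 88.4 RPKM, differed from each other, and its 24 h libraries stood at 5.95 and 4.01 RPKM, from 55 and 50 reads. By limma the change was -4.92 ± 0.61 (log2, SE, adjusted p = 0.0108), with -5.69 within number 1 and -4.16 within number 2. At 6 h it had 729.1 and 559.5 RPKM, the highest values of the course. At 0 h it had 7.77 and 5.32 RPKM and at 48 h 5.02 and 2.18, so the 24 h libraries lay within the range of these 4. The limma adjusted p was 0.0597 without 24 h library 1 and 0.195 in the 4 libraries alone.

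**Figure D1:**
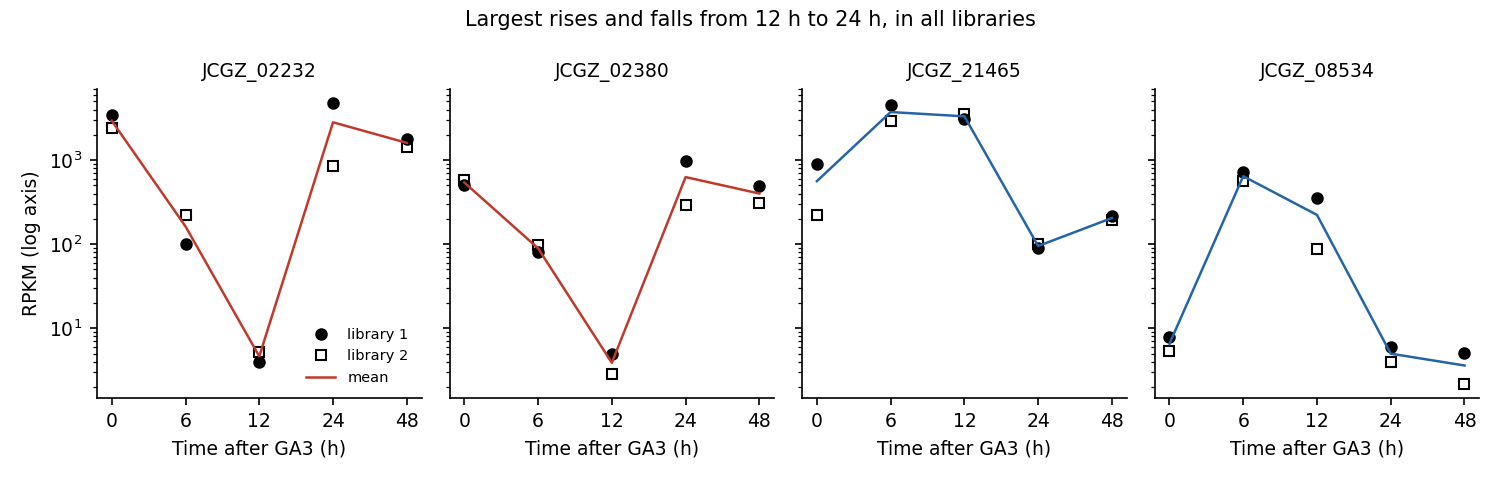
RPKM (log axis) of the 2 genes with the largest rises and the 2 with the largest falls from 12 h to 24 h, by time after GA3 in hours; filled circles are library 1, open squares library 2, and lines join the means. The rising genes are lowest at 12 h, at 2.86 to 5.28 RPKM, and the falling genes are high at 6 h and 12 h.

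The 148 rising genes went from a median of 8.25 RPKM at 12 h to 68.4 at 24 h. Their median in single libraries was 8.96 and 8.03 RPKM at 12 h and 79.7 and 52.1 RPKM at 24 h. The genes were called on these libraries, so a gap between the times follows from the choice. Both 24 h libraries lay above both 12 h libraries in all 148, as in 10.2% of all genes tested. At 12 h, 5 of them reached 100 RPKM, whereas at 24 h 50 did. The 13 that lay under 1 RPKM at 12 h passed the filter on mean level only through 24 h, and that filter lets no rising gene lie under 1 RPKM at 24 h. Together they held 0.335% and 0.284% of all reads at 12 h, and 4.77% and 2.75% at 24 h. Their share was 3.70% and 3.84% in the 0 h libraries, 1.46% and 1.51% in those of 6 h, and 3.13% and 2.81% in those of 48 h. The share was thus lowest at 12 h and intermediate at 6 h, and the 24 h pair enclosed those of 0 h and 48 h. With 2 libraries against 2, a two-sided exact permutation test of such a share cannot go below p = 0.333. In bulk tissue, fewer cells of a type and less RNA per cell cannot be told apart.

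Size and position of the rises varied widely. The 10 largest ran from 5.34 to 8.50 (log2), with mean levels of 0.102 to 132.5 RPKM at 12 h and 69.0 to 9075 RPKM at 24 h. Of the 148 rises, 101 were at least 4-fold, 61 at least 8-fold, 32 at least 16-fold and 13 at least 32-fold. Their median gene length was 1011 bases, against 1104 bases in all genes tested, and 2 of them were IDs outside the JCGZ locus tags. At the low end, 3 genes had at most 3 reads in each 12 h library and at least 100 in each 24 h library, and 0 genes showed the opposite pattern. Of the 100 most abundant transcripts at 24 h, 27 were not among the 100 most abundant at 12 h. Among the 100 at 24 h, 5 were called as rising, as were 0.856% of all genes tested, and ranking at 24 h by itself favours rising genes. Of the 100 at 12 h, 0 were called as rising and 1 as falling.

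The 53 falling genes went from a median of 33.4 RPKM at 12 h to 4.98 at 24 h. Their median in single libraries was 41.7 and 28.5 RPKM at 12 h and 5.63 and 4.02 RPKM at 24 h. Of these genes, 8 reached 100 RPKM at 12 h and 0 did at 24 h. The 11 that lay under 1 RPKM at 24 h passed the filter on mean level only through 12 h. They held 0.432% and 0.400% of all reads at 12 h and 0.0701% and 0.0716% at 24 h, a fall of like size in both numbers. At 6 h they held 0.635% and 0.485%, at 0 h 0.123% and 0.0867%, and at 48 h 0.0995% and 0.0953%. The 6 h and 12 h libraries were thus the high ones, and both 24 h libraries held the smallest shares of the 10. The genes were called as lower at 24 h than at 12 h, so the gap between these times follows from the choice. That choice also favours low shares at 24 h against the other times. The 10 largest falls ran from -5.11 to -2.97 (log2), and 33 of the 53 were at least 4-fold.

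**Figure D2:**
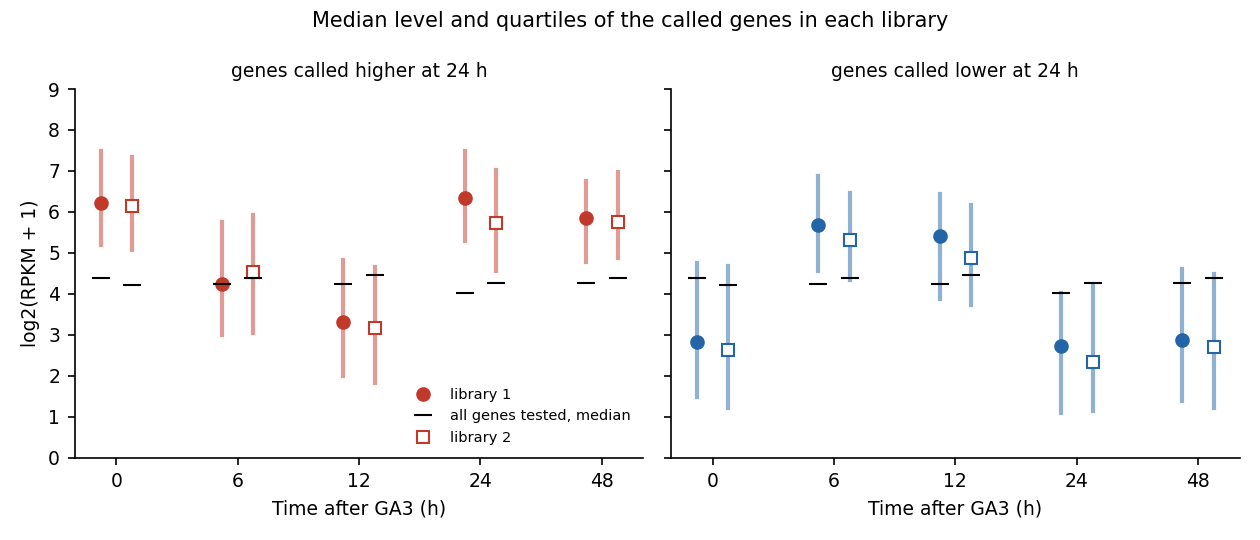
Median (points) and quartiles (bars) of log2(RPKM + 1) over the 148 genes called higher (left) and the 53 called lower (right) at 24 h than at 12 h, in each library by time after GA3 in hours; short black lines are the median of all genes tested. The rising set is lowest at 12 h, at 3.32 and 3.17, and the falling set is high at 6 h and 12 h only.

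Against 0 h, limma called 0 genes at 24 h (0%, 553 with an unadjusted p under 0.05, and 0 by limma-voom). Of the 148 rising genes, 146 lay within 2-fold of their 0 h level at 24 h, as did 48 of the 53 falling genes and 16531 of all 17290 (95.6%). These comparisons share the 24 h libraries with the step itself. The rising genes lay at a median of -0.15 (log2) against 0 h, with 49 above and 99 below, and the falling genes at -0.27, with 10 above and 43 below. The median of all genes was -0.14 on the same scale. From 24 h to 48 h, limma called 0 genes (322 with an unadjusted p under 0.05, and 0 by limma-voom). With the replicate block it also called 0, with 3244 at an unadjusted p under 0.05. In both numbers 138 genes were at least 2-fold higher at 48 h and 39 at least 2-fold lower. Of the rising genes 97.3% and of the falling genes 96.2% stayed within 2-fold over that interval, close to the 97.2% of all genes tested.

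The changes in the 2 library numbers ran together. Within number 1 the changes from 12 h to 24 h had a standard deviation of 0.68 (log2) over genes and within number 2 of 0.74, and the 2 correlated over genes with Pearson r = 0.65 and Spearman rho = 0.58. Genes are not independent replicates, and the 2 comparisons share no library. At least 2-fold changes in both numbers were seen upward in 428 genes (2.48%) and downward in 376 (2.17%), while 33 genes went down in number 1 and up in number 2 by that much, and 1 gene did the reverse. At 4-fold the counts were 117 up (0.677%) and 31 down (0.179%), at 8-fold 51 (0.295%) and 9 (0.0521%), and at 16-fold 21 (0.121%) and 3 (0.0174%). Upward and downward changes were thus about as many at 2-fold, and upward ones prevailed at larger folds. Measured from each number's own median, 598 genes lay at least 2-fold above and 171 at least 2-fold below in both.

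**Figure D3:**
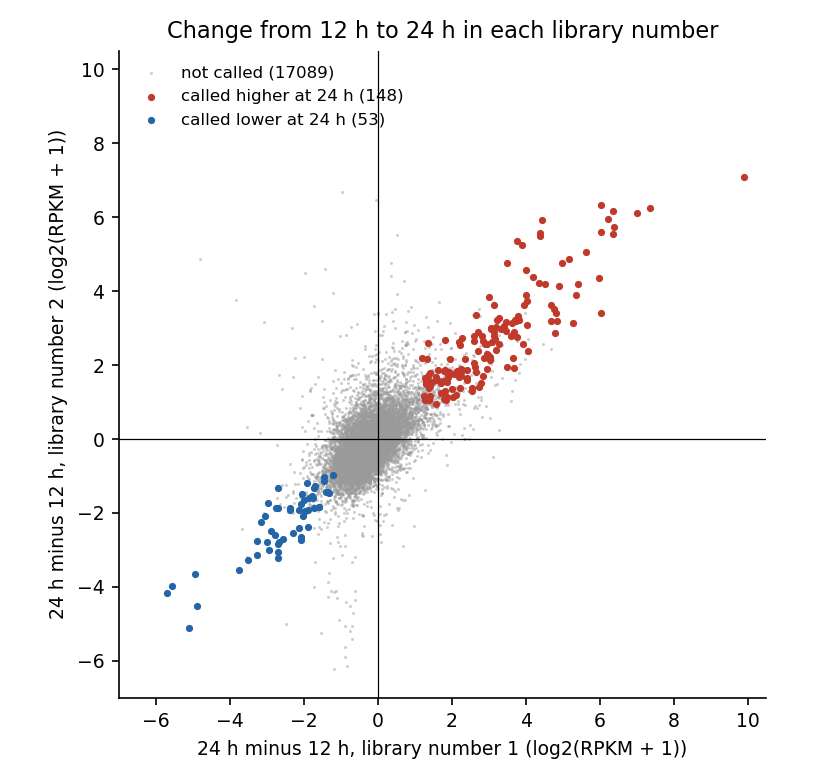
Change from 12 h to 24 h of each of the 17290 genes on log2(RPKM + 1), in library number 1 (horizontal) and number 2 (vertical); red points are the 148 genes called higher and blue points the 53 called lower. The called genes lie along the diagonal, and a strand of uncalled genes below it fell in number 2 by far more than in number 1.

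Some genes passed 8-fold in 1 number only. In number 2, 31 genes were at least 8-fold lower at 24 h that were not so in number 1, with median changes of -4.31 (log2) in number 2 and -1.05 in number 1, and 2 of them were called. Their median was 402.9 and 179.2 RPKM in the 12 h libraries 1 and 2, and 157.7 and 6.51 RPKM in the 24 h libraries. In the other number 1 libraries it was 601.7 RPKM at 6 h and 339.4 at 48 h, whereas the number 2 libraries of 6 h and 48 h had 5.30 and 8.10 and the 0 h libraries 2.33 and 3.19. For 28 of the 31 genes, the number 1 libraries of 6, 12, 24 and 48 h and 12 h library 2 all lay above the other 5 libraries. That 12 h library 2 lay above 24 h library 2 follows from the choice, and this pattern was not counted over all genes. The 31 genes held 1.04% and 0.596% of the reads at 12 h and 0.548% and 0.0210% at 24 h. Their median gene length was 474 bases, a length that 8 of them had exactly. Of the remaining genes past 8-fold in 1 number only, 10 were lower in number 1, 45 higher in number 1 and 39 higher in number 2. The 45 had a median change of 2.32 (log2) in number 2 as well, against 3.36 in number 1, with 44 of them sharing the sign and 21 called. The 39 had a median of 3.41 in number 2 and 0.39 in number 1, with 24 sharing the sign and 1 called. The 10 had medians of -3.23 in number 1 and -0.92 in number 2, with 5 sharing the sign and 3 called. These sets were chosen on the values they describe, which by itself favours calls, and no test was applied. Of all genes tested, 0.856% were called higher and 0.307% lower. Among them, 19.97% were higher and 55.3% lower at 24 h in both numbers.

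Reversal was first followed in genes chosen by the change from 0 h to 6 h, a difference that holds no library of this step. The choice is not fully separate from the step, since the filter on mean level used the 12 h and 24 h libraries and the spread was estimated over all 10. At 6 h, 83 genes were called higher than at 0 h (0.48% of those tested) and 113 lower (0.654%). From 12 h to 24 h the 83 genes had a median change of -1.38 (log2), with -1.55 in number 1 and -1.43 in number 2, beside -0.22 in all genes tested. The fitted change was below 0 in all 83, as in 11939 of all 17290 genes, and 82 were lower at 24 h in both numbers, as were 55.3% of all genes. Of the 83, 34 were called lower (41.0%, against 0.307% of all genes) and 0 higher. The 113 genes had a median change of 1.66, with 1.82 in number 1 and 1.597 in number 2. The change was above 0 in 110 of them, as in 5351 of all 17290 genes, and in both numbers in 105, as in 19.97% of all genes. Of the 113, 60 were called higher (53.1%, against 0.856% of all genes) and 0 lower. With the replicate block, 67 of the 83 were called lower, against 4.3% of all genes, and 88 of the 113 higher, against 2.91%. The 6 h, 12 h and 24 h libraries share the numbering. The choice at 6 h changed when any single library was left out, those of the step included. Both sets shrank without a 0 h, 6 h, 12 h or 48 h library. Without a 24 h library the higher set shrank and the lower set grew slightly. The higher and lower sets held 52 and 71 genes on dropping T48_1 and 53 and 74 on dropping T48_2, with median changes from 12 h to 24 h of -1.69 and 1.79, and of -1.67 and 1.83. They held 22 and 11 genes on dropping T0_1, 10 and 6 on dropping T0_2, 13 and 9 on dropping T6_1, and 26 and 12 on dropping T6_2. The median changes of the sets without a 0 h or 6 h library were -2.10, -2.27, -2.32 and -2.63 for the higher genes and 3.46, 4.46, 3.51 and 3.46 for the lower genes.

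**Figure D4:**
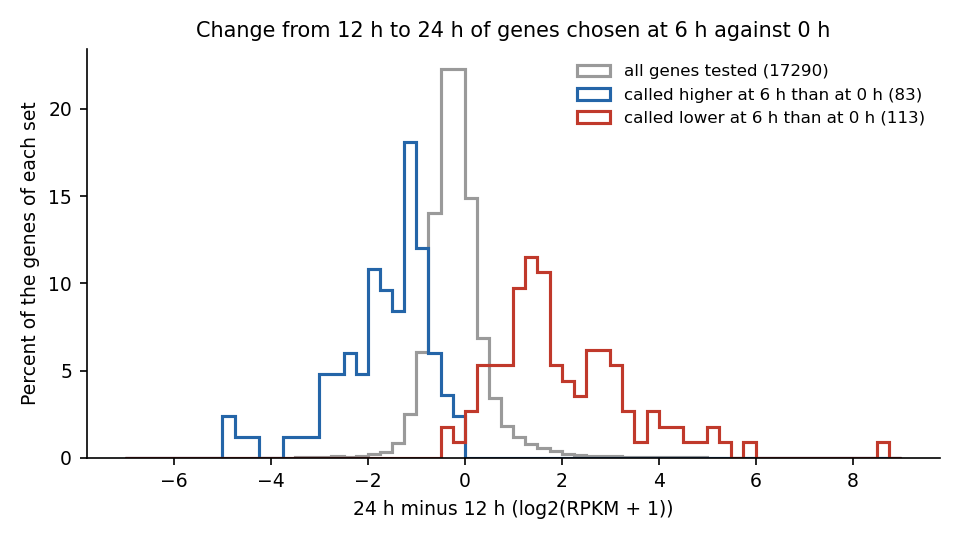
Change from 12 h to 24 h on log2(RPKM + 1), as the percent of each set per bin, for the 83 genes called higher and the 113 called lower at 6 h than at 0 h and for all 17290 genes tested. The sets chosen at 6 h lie on opposite sides of 0, with medians of -1.38 and 1.66.

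In levels, the 83 genes had a median of 6.89 and 6.20 RPKM in the 0 h libraries and of 51.8 and 44.9 RPKM in those of 6 h. The 12 h libraries followed with 23.7 and 20.9 RPKM, those of 24 h with 5.95 in each, and those of 48 h with 6.58 and 6.16. They held 0.551% and 0.483% of reads at 12 h and 0.175% and 0.190% at 24 h. The 113 genes had 51.5 and 50.5 RPKM in the 0 h libraries and 7.76 and 8.95 in those of 6 h. The 12 h libraries had 7.37 and 7.74 RPKM, those of 24 h 42.3 and 32.1, and those of 48 h 35.0 and 39.8. From 6 h to 12 h, the genes high at 6 h had a median change of -0.997 (log2), while the genes low at 6 h stood at -0.01. This interval shares the 6 h libraries on which both sets were chosen, which by itself favours a return toward the 0 h level.

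Genes already changed at 12 h were then followed. This choice uses the 12 h libraries that the step also uses, which by itself favours opposite directions, so its counts are a description. Of 224 genes called lower at 12 h than at 0 h (1.3% of those tested), 135 were called higher from 12 h to 24 h, as were 0.856% of all genes. Of 42 called higher at 12 h (0.243%), 36 were called lower from 12 h to 24 h, as were 0.307% of all genes. The reversed genes numbered 171 of 266 (1.54% of those tested were called at 12 h) with all libraries. The number called at 12 h changed as well when a library was dropped. On dropping T0_1, 34 of 35 reversed, and on dropping T0_2, 43 of 52. On dropping T24_1, 42 of 286 reversed, and on dropping T24_2, 138 of 298. The counts were 61 of 102 without T12_1, 50 of 94 without T12_2, 103 of 192 without T6_1, 102 of 191 without T6_2, and 111 of 212 without either 48 h library. Of the 266 genes, 0 were called in the same direction in both comparisons.

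The 89 genes called lower at 12 h whose rise did not pass the test had smaller changes. Their median change from 12 h to 24 h was 1.44 (log2), 87 of them were higher at 24 h in both numbers (19.97% of all genes were), and 70 were called higher with the replicate block (2.91% of all genes). Their median was 38.6 and 32.7 RPKM in the 0 h libraries, 8.14 and 7.15 in those of 12 h, and 27.4 and 19.4 in those of 24 h. At 24 h they lay at a median of -0.54 (log2) against 0 h. The choice favours this side, since their rise fell short of the test that their earlier fall had passed. Of the 6 genes called higher at 12 h whose fall did not pass, all 6 were lower at 24 h in both numbers (55.3% of all genes were), with a median of -1.29, and all 6 were called lower with the block (4.3% of all genes).

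A smaller group was called from 12 h to 24 h without having been called at 12 h against 0 h. It held 13 of the 148 rising and 17 of the 53 falling genes. The 13 rising genes had medians of 50.4 and 54.8 RPKM in the 0 h libraries, 19.6 and 15.1 in those of 12 h, and 82.9 and 60.1 in those of 24 h, and all 13 lay above their 0 h level at 24 h. The 17 falling genes had 26.1 and 20.6 RPKM in the 0 h libraries, 44.0 and 37.6 in those of 12 h, and 13.3 and 12.0 in those of 24 h, and all 17 lay below 0 h at 24 h. Both positions against 0 h follow from the choice. A gene called over the step but not at 12 h against 0 h had the larger fitted change in the step. At 48 h their medians were 62.9 and 39.0 RPKM for the rising and 17.6 and 17.6 for the falling genes, between the levels of 12 h and 24 h.

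Beside these large changes, the median gene stood slightly lower at 24 h. The median change over the 17290 genes was -0.24 (log2) in number 1 and -0.18 in number 2, and -0.22 for the mean of both, a ratio of 0.859. The lower and upper quartile ran from -0.49 to 0.08. In both numbers 9564 genes (55.3%) were lower at 24 h and 3453 (19.97%) were higher. A further 4271 had opposite signs in the 2 numbers, and 2 had a change of 0 in a number. Both 24 h libraries lay below both 12 h libraries in 4667 genes (27%) and above them in 1769 (10.2%). In single libraries the median level was 17.9 and 21.2 RPKM at 12 h and 15.3 and 18.2 at 24 h, so within each number 24 h was lower, while 12 h library 1 lay below 24 h library 2. Over the preceding step from 6 h to 12 h, which shares the 12 h libraries, the median change was 0.01 and 0.02, and over the step from 24 h to 48 h, which shares the 24 h libraries, it was 0.18 and 0.05.

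The downward shift was not the same for all genes. In 10 classes of gene length, the median change went from -0.05 (number 1) and 0.05 (number 2) in the shortest class, with a median length of 333 bases, to -0.42 and -0.63 in the longest, with a median of 2994 bases. It went down with each class in both numbers. The Spearman correlation over genes between change and length was -0.21 in number 1 and -0.31 in number 2. By level, the 2383 genes with a mean of 5 to 10 RPKM were lowest, at -0.36 and -0.33, and the 492 genes at 500 RPKM or more were highest, at 0.07 and 0.22. Long and weakly expressed genes overlap as classes, but both gradients remained when crossed: in the longest of 3 length classes, genes under 100 RPKM had -0.36 and -0.41 and those at 100 RPKM or more -0.14 and -0.15, and in the shortest class the values were -0.17 and -0.06 against -0.02 and 0.12. JCGZ genes had medians of -0.25 and -0.19 and the 918 other IDs -0.04 and -0.11.

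**Figure D5:**
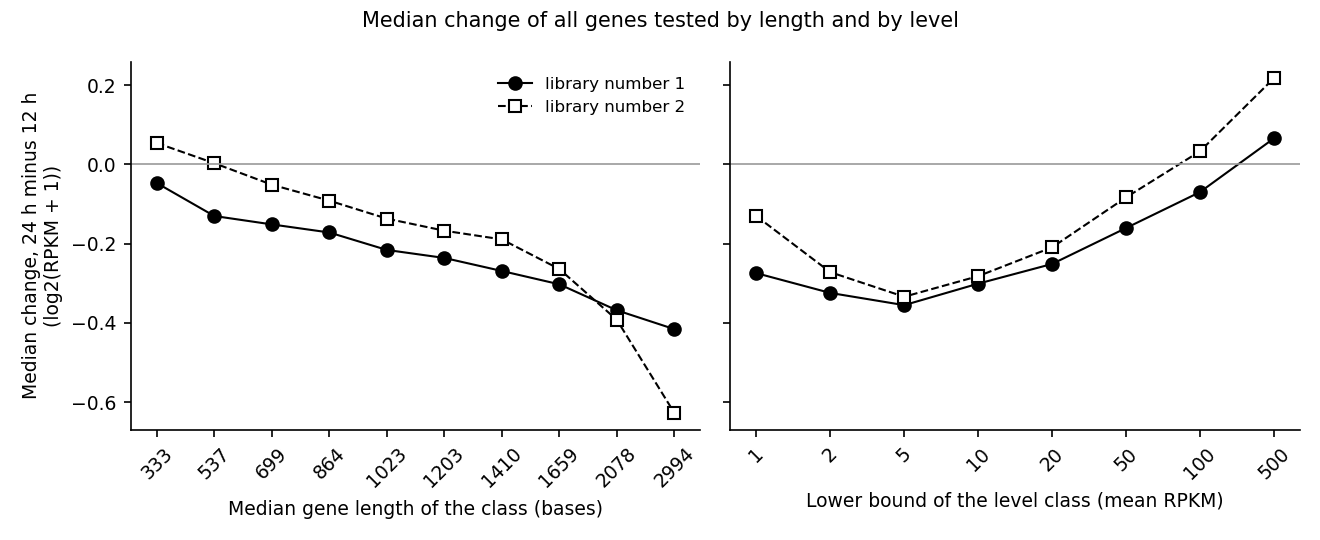
Median change from 12 h to 24 h on log2(RPKM + 1) over all genes tested, in 10 classes of gene length (left, labelled by median length in bases) and 8 classes of mean level (right, labelled by lower bound in RPKM), for library number 1 (filled) and number 2 (open). The median falls with length to -0.42 and -0.63, and it rises above 5 RPKM to 0.07 and 0.22 at 500 RPKM or more.

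The share of reads held by the genes with the most reads moved with this shift. The 10 genes with the most reads in each library held 3.66% and 2.75% of reads at 12 h and 5.42% and 5.2% at 24 h, and the 100 with the most reads held 14.1% and 11.6% at 12 h and 18.3% and 17.1% at 24 h. The genes at 500 RPKM or more over the 4 libraries held 31.3% and 21.9% of reads at 12 h and 36.9% and 29.7% at 24 h, higher within each number, with 12 h library 1 above 24 h library 2. RPKM values are relative to the reads of a library, so a larger share for some transcripts lowers the values of others. The part of these shares and of gene length in the median shift was not tested.

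The genes called only with the replicate block were smaller changes and differed in length between directions. Beyond the 53, the block called 691 further falls with a median change of -1.03 (log2), a median length of 1470 bases and a median level of 24.2 RPKM at 12 h and 11.0 at 24 h. Of these 691, 9 changed at least 4-fold. Beyond the 148, it called 355 further rises with a median of 1.34, a median length of 888 bases and 52 genes at 4-fold or more. In the longest of the 10 length classes (1729 genes), 135 falls and 13 rises were called, and in the shortest (1754 genes) 42 and 78. Over all genes tested, this fit called 4.3% as falling and 2.91% as rising. After a correction of each library for gene length, which also centres it, the blocked fit called 549 rises and 251 falls among the 17290 genes. These included all 148 and all 53, and 25 rises and 16 falls lay among the 1729 genes of the longest class. The median of all genes was then -0.01.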

How the data were processed

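Total RNA of inflorescence meristems was sequenced in 10 libraries, 2 at each of 5 times after GA3. The deposited tables hold 1 value per gene ID and library, with no unit stated. They were read as RPKM, which the authors computed before deposit, because 100.0% of the 203696 values above 0 came out as whole reads within 0.01 reads once gene length and library denominator were solved for. Of the recovered JCGZ lengths, 99.93% were multiples of 3, so these are coding lengths. The submitters' processing notes name Bowtie 0.12.2 and a mouse build, mm8, and give neither a role. For the genome, annotation, counting tool and filters, the choice was not given in the sources used here. Libraries held 15934189 to 24448219 recovered reads.

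Genes were tested where their mean over the libraries of 12 h and 24 h reached 1 RPKM, on log2(RPKM + 1), a scale that understates the change of low genes. Of 28447 IDs, 21488 had reads in these 4 libraries and 17290 passed, 321 of them only through 12 h and 170 only through 24 h. Among the called genes, 13 rises lay under 1 RPKM at 12 h and 11 falls lay under 1 RPKM at 24 h. The test was limma 3.58.1 in R 4.3.3 with time as a factor over all 10 libraries, a mean-variance trend and robust moderation. Adjustment followed Benjamini and Hochberg for each comparison separately, with a threshold of 0.05. Pandas 2.3.3 under Python 3.11.15 gave the summaries. The script was tested on simulated data. Alternatives were another pseudocount (0.1), other filters, centring on the median, a correction for gene length by loess (span 0.3), limma-voom on the recovered reads, other sets of libraries, the replicate block and each library left out in turn.

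Library numbers in the titles may pair libraries, and the labels do not say what they mark. The difference of library 1 minus library 2 correlated over genes between all 6 pairs of treated times (Pearson r = 0.54 to 0.70), and with 0 h at -0.32 to -0.15. The numbers were therefore taken to pair the 8 treated libraries, from the data alone, and the blocked fit over these 8 stands beside the counts.

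Genes named by ID are the 2 with the largest called rises and the 2 with the largest called falls that moved the same way in both numbers. Of the IDs, 0 could be matched to a gene name, so the lists of gibberellin, clock, cell cycle, hormone and marker genes could not be run. The step, its genes and these lists were chosen with earlier results of these data known.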

Additional observations from a re-analysis of the deposited data

Results flagged for a closer look

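The test of 24 h against 12 h is also the test of whether the change from 0 h differs between these times. By limma it called 148 genes with a more positive change at 24 h and 53 with a more negative one. Among the named genes, the difference was 8.50 (log2) for JCGZ_02232 and 6.80 for JCGZ_02380, and -5.11 for JCGZ_21465 and -4.92 for JCGZ_08534. All 4 had the same direction in both library numbers, which the rule for naming them required.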

How the results depend on the processing

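The 4 named genes kept their direction under all 24 alternatives run for each, and their losses of significance stand in the report. Where an alternative left the values of the 4 libraries of the step as they were, the fitted change was the same number. Only its p-value could move there. The median change of all genes went from -0.22 (log2) to -0.14 without a filter, -0.0053 with centring and -0.0095 with the length correction, with or without the block, and it ran from -0.24 to -0.19 with single libraries left out. Higher and lower calls numbered 93 and 38 without a filter, 91 and 35 by limma-voom, and 167 and 31 with centring. Chosen after seeing the data, the 8 treated libraries without a block gave 59 and 18, and with the length correction 158 and 32.

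With the replicate block, higher and lower calls numbered 503 and 744 in the 8 treated libraries, 502 and 635 in the 4 libraries, 225 and 98 in all 10, and 549 and 251 with the length correction. The 4 libraries without a block gave 0 and 0 (1169 at an unadjusted p under 0.05). The share of higher among all calls was 73.6% in the unblocked fit, 40.3% with the block in the 8, 68.6% with the length correction and block, and 84.3% with centring.

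Leaving out single libraries gave 39 to 132 higher and 6 to 35 lower calls, and 34 to 138 reversed genes, against 108 by limma-voom. The median change of the genes called higher at 6 h was -1.66 with a pseudocount of 0.1, -1.22 without a filter, -1.11 with centring and -1.69 by limma-voom, and -2.63 to -1.56 with single libraries left out. That of the genes called lower at 6 h was 1.70 to 4.46 with single libraries left out. The count of genes changed at least 2-fold in both numbers ran from 692 to 1141 against 804, and has no value when a 12 h or 24 h library is left out, since 1 number then remains. The causes of these differences were not tested. Genes with few reads at 1 of the times have an uncertain fold.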
